A study of Mus musculus with 24 samples.

Results

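The sugar transport, fructose metabolism and gluconeogenesis genes examined here were Slc5a1, Slc2a1, Slc2a2, Slc2a5, Khk, G6pc, Pck1, Fbp1 and Slc37a4, 9 of the 55536 genes in the deposited count table. They were chosen by name, for their function, and found in the table by Ensembl identifier. The samples were ileal tissue of 24 mice of the inbred strain C57BL/6N, sequenced as 1 RNA library per animal, in 4 groups of 6. Each group held 3 males, here M1, M2 and M3, with 3 females, F1, F2 and F3, and p-values measure the spread between these animals. The animals entered the study at an age of 4 to 5 weeks. They shared cages with others of their sex, and 1 animal of a cage was sequenced. CD animals ate a control diet with 10% of its energy from fat and HFD animals a high-fat diet with 60%, both without the drug. CDmetf and HFDmetf animals ate the same diets and, after 20 weeks, drank water with metformin, an oral antidiabetic, at 50 mg per kg of body mass per day for 10 weeks. All animals were wild type, and the 2 groups without metformin stayed on their diets for the same time. The comparisons ask how diet and metformin, each with and without the other, bear on these transcripts.

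Absorption of sugar begins at the brush border, the folded face of the enterocyte toward the gut lumen. Sglt1, encoded by Slc5a1, carries glucose and galactose into the cell together with sodium. Glut5, encoded by Slc2a5, lets fructose in, and Glut2, encoded by Slc2a2, passes glucose, galactose and fructose on to the blood. Glut1, encoded by Slc2a1, is a glucose carrier of many cell types and serves their own supply. Ketohexokinase, encoded by Khk, puts the first phosphate on fructose. Gluconeogenesis makes glucose from smaller molecules: Pck1 encodes the cytosolic phosphoenolpyruvate carboxykinase at its start, Fbp1 the fructose bisphosphatase in its middle, and G6pc the catalytic subunit of glucose 6-phosphatase at its end. Slc37a4 encodes the carrier that brings glucose 6-phosphate to that phosphatase inside the endoplasmic reticulum. Many of these genes are more active in the proximal than in the distal small intestine, and liver and kidney are the best known sites of gluconeogenesis.

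The libraries held 1829690 to 40606442 counts in genes, with a median of 3467308. In the library CD M3, 85.4% of the counts fell in 10 genes, against 9.22 to 36.6% in the others, and the library labelled HFD M2 carried Xist at 1104 CPM (counts scaled to a common library size by TMM) while HFD F2 had 0.428 CPM, the reverse of the labelled sexes. These 3 libraries were kept under their labels. Of the 6 epithelial markers, none was at 0 in any library, and their sum ranged from 3545 to 9622 CPM. The ileal markers Slc10a2, Fabp6, Fgf15, Slc51b and Cubn summed to 1021 to 5809 CPM, with Fgf15 at 0 in 1 library and the others detected in all. The sum of 6 markers of the proximal small intestine (Gata4, Lct, Cybrd1, Slc40a1, Slc46a1 and Onecut2) also reached 3276 CPM, from 55.0 CPM in the lowest library, and the lactase gene Lct alone reached 3122 CPM. Hepatocyte markers were at or near 0, with Alb at 0 in 13 libraries and never above 5.31 CPM. Among 14076 genes tested with edgeR's quasi-likelihood test, 0 passed a false discovery rate (FDR) of 0.05 in any of the 7 comparisons, and 652 to 1108 genes had an unadjusted p under 0.05 in the 4 comparisons of single groups. DESeq2 called 0 to 48 genes and limma-voom 0 to 2 in the 7 comparisons.

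Promoter sequence is shown for 4 of the genes whose levels moved together across libraries, Slc5a1, Slc2a2, Slc2a5 and Khk, and for G6pc, which differed between the sexes in CDmetf. Each is the 250 bases before the transcription start, from RefSeq on GRCm38.p6 and read 5′ to 3′ along the gene, and a RefSeq start can differ from the first base of the gene model given with the values. All 9 genes had an entry, with 11 windows in all. Capitals mark matches to the motifs named below.
Slc5a1 (chr5:33103969-33104218, plus strand): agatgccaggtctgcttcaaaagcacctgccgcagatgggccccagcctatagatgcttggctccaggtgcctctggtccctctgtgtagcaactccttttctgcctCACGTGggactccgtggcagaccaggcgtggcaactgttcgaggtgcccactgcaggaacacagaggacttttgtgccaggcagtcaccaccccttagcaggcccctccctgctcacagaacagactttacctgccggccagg
Slc2a2 (chr3:28697653-28697902, plus strand): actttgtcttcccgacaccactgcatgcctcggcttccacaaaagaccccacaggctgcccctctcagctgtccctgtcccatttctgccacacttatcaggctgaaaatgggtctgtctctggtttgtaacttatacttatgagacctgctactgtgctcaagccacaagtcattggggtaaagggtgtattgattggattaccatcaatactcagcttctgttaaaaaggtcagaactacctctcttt
Slc2a5 (chr4:150119094-150119343, plus strand): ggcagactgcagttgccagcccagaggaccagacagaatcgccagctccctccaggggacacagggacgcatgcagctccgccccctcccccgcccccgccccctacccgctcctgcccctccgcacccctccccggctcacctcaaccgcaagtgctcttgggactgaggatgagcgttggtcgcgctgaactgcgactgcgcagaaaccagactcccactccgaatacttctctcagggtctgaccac
Khk (chr5:30921309-30921558, plus strand): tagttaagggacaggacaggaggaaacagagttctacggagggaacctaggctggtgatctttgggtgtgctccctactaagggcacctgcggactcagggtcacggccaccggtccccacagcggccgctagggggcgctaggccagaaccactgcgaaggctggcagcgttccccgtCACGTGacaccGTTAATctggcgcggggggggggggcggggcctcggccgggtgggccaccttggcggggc
G6pc (chr11:101367466-101367715, plus strand): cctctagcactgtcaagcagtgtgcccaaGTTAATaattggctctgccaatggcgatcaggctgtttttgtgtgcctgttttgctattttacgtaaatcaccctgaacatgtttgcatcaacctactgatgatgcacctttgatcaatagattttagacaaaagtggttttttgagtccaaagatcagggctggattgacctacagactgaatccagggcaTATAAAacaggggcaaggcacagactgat

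Each motif was searched on both strands of the 300-base window that runs on past the start. An E-box, CACGTG, the form bound by the sugar-responsive factor ChREBP among others, lay at -143 to -138 in Slc5a1 and at -71 to -66 in Khk, counted from the start. Of the 32851 promoter windows of all genes, 7.15% held it. GTTAAT, the core of the site of HNF1 factors of gut, liver and kidney, lay at -60 to -55 in Khk, at -221 to -216 in G6pc and, on the other strand, at -192 to -187 in Pck1, and was in 7.10% of all windows. The motif of GATA factors, AGATAA, lay in Pck1 and Fbp1 and in 11.2% of all windows. The core promoter motif TATAAA lay at -29 to -24 in G6pc, in a window of Slc37a4 and just past the start of Slc2a1, and was in 13.6%. No window of the 9 genes held CAAAGTCCA (a site of HNF4), TGACGTCA (the palindromic form of the cAMP response element) or TTTATGG (a CDX2 core). These were in 0.475%, 1.79% and 2.75% of all windows. Only these exact letters were searched, and variants such as the TTACGTCA in the Pck1 window were not counted.

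Per length of exon, Slc5a1 stood far above the others, with a median of 268 CPM per kb over the 24 libraries. Khk followed at 55.2, Slc2a5 at 19 and Pck1 at 14.9 CPM per kb. Slc37a4 (9.49 CPM per kb), Slc2a2 (8.62), Fbp1 (5.98), Slc2a1 (4.63) and G6pc (4.31) formed the lower end. Slc5a1 exceeded Khk, and Khk exceeded Slc2a5, in 24 of 24 libraries. Neighbours further down overlapped widely: Slc2a5 exceeded Pck1 in 15 of 24 libraries, Slc37a4 exceeded Slc2a2 in 12 and Slc2a1 exceeded G6pc in 12.

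**Figure D1:**
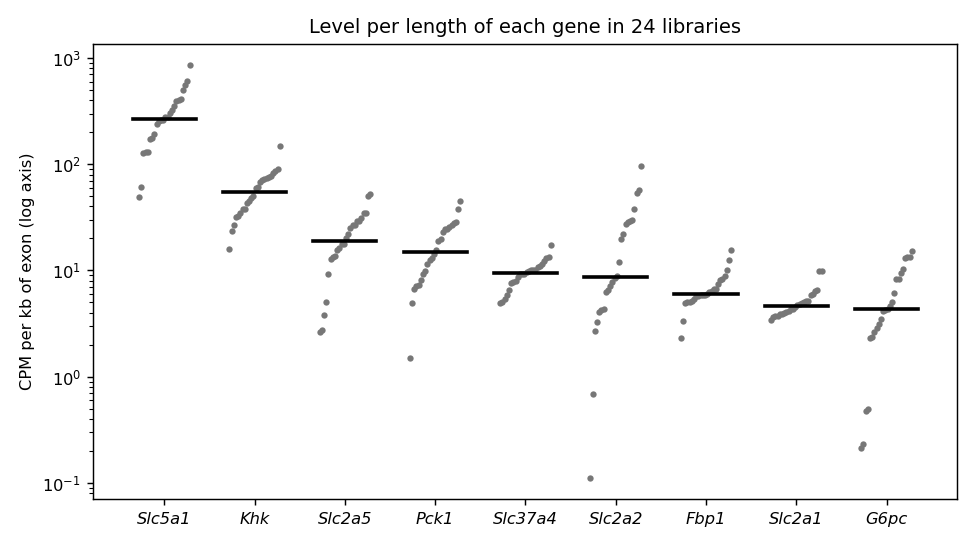
Level of each gene per length of exon (CPM per kb, log axis) in the 24 libraries, sorted within each gene, with the median as a bar. Slc5a1 and Khk stand above the rest, and Slc2a2 and G6pc spread most widely, down to 0.111 and 0.215 CPM per kb.

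Slc5a1 (ENSMUSG00000011034, GRCm38 chromosome 5, 33104219 to 33162870) had 522 CPM in its lowest CD library, a median of 1357 and 3552 in its highest. The CDmetf libraries ran from 533 to 1696 CPM with a median of 1131, the HFD libraries from 707 to 2301 with a median of 1191, and the HFDmetf libraries from 200 to 2071 with a median of 851 CPM. All 4 groups overlapped, and the lowest libraries were HFDmetf M1 and HFDmetf F2. With HFD vs. CD the transcript differed by a logFC of -0.23 (SE 0.459), and with HFDmetf vs. CDmetf by -0.28 (SE 0.456). For metformin the estimate was below 0 on both diets, with a logFC of -0.65 (SE 0.457) for CDmetf vs. CD and -0.69 (SE 0.462) for HFDmetf vs. HFD, neither of which passed the test.

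The fructose carrier gene Slc2a5 (ENSMUSG00000028976, chromosome 4, 150119283 to 150144169) ranged in CD from 31.2 to 178 CPM with a median of 69.0. In HFD it ranged from 46.2 to 172 CPM (median 90.6), in CDmetf from 9.02 to 99.3 (median 58.1) and in HFDmetf from 9.39 to 99.6 (median 56.3). In both metformin groups the highest library lay under 100 CPM, while 2 CD and 3 HFD libraries lay above it. Slc2a5 had a logFC of 0.31 (SE 0.476) for HFD vs. CD, -0.75 (SE 0.478) for CDmetf vs. CD and -0.88 (SE 0.486) for HFDmetf vs. HFD. The last was lower in 5 of 6 pairs of the same sex and number, with an FDR of 0.640. Pairs follow the labels throughout, so HFD M2 and HFD F2 are paired with libraries whose sex-linked transcripts differ from theirs.

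Slc2a2 (ENSMUSG00000027690, chromosome 3, 28697903 to 28731359), the exit route for absorbed sugar, was the most variable of the 9 genes. It ran from 18.9 to 553 CPM in CD (median 91.4), from 15.3 to 220 in CDmetf (median 56.5), from 35.8 to 311 in HFD (median 83.5) and from 0.636 to 172 in HFDmetf (median 49.6). The lowest value, in HFDmetf M1, rested on 4 counts, and HFDmetf F2 followed with 3.98 CPM. No other library was under 15 CPM. The SE of its logFC was 0.851 to 0.880 in the 4 comparisons of single groups, and the estimates of -1.0 for CDmetf vs. CD and -1.14 for HFDmetf vs. HFD did not pass the test. Without CD M1, the library with the highest value, the estimate for CDmetf vs. CD was 0.01.

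Slc2a1 (ENSMUSG00000028645, chromosome 4, 119108711 to 119137983) had the narrowest range, with group medians of 15.3 CPM in CD, 17.5 in CDmetf, 16.4 in HFD and 15.5 in HFDmetf. Its values ran from 13 to 22.6 CPM in CD and from 14.4 to 34.3 in CDmetf. In HFD they ran from 12.8 to 22.9 CPM and in HFDmetf from 11.9 to 34.7 CPM. The 2 values over 30 CPM belonged to CDmetf M2 and HFDmetf M1, which were among the lowest libraries of Slc5a1, Slc2a2 and Slc2a5. By the fitted logFC it was the single gene of the 9 that was higher in CDmetf than in CD, in 6 of 6 pairs (logFC 0.30, SE 0.196, FDR 0.946). An antisense gene, Gm12868, overlaps its exons, and as the strand used for counting is not given in the sources used here, reads of both cannot be told apart. Gm12868 itself had 0.397% as many counts as Slc2a1.

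Khk (ENSMUSG00000029162, chromosome 5, 30921431 to 30931248) ran from 58.7 to 265 CPM in CD with a median of 98.0 and from 28.6 to 148 CPM in CDmetf with a median of 70.0. In HFD it ran from 80.7 to 161 CPM (median 128) and in HFDmetf from 42 to 139 CPM (median 99.1). Every HFD library lay above the median of CDmetf, but the groups overlapped. The logFC was 0.13 (SE 0.329) for HFD vs. CD, 0.28 (SE 0.331) for HFDmetf vs. CDmetf, -0.59 (SE 0.331) for CDmetf vs. CD and -0.44 (SE 0.329) for HFDmetf vs. HFD. None passed the test, and without CD M1 the estimate for CDmetf vs. CD was -0.23.

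Of the gluconeogenic genes, Pck1 (ENSMUSG00000027513, chromosome 2, 173153048 to 173159273) ran from 31.6 to 87.7 CPM in CD with a median of 81.5. In CDmetf the range was wider, from 5.15 to 97.3 CPM with a median of 39.1. HFD libraries spread from 23.1 to 153 CPM (median 66.3) and HFDmetf libraries from 25.1 to 95.6 CPM (median 41.3). The 3 CD females were alike at 79.5, 83.5 and 83.6 CPM, while the CDmetf females differed most, at 91.2, 5.15 and 17.0 CPM. Its logFC was -0.73 (SE 0.443) for CDmetf vs. CD and -0.60 (SE 0.438) for HFDmetf vs. HFD, lower in 4 and 5 of 6 pairs.

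G6pc (ENSMUSG00000078650, chromosome 11, 101367561 to 101377903) had a median of 25.8 CPM in HFD, with a range of 7.57 to 36.8. The medians of the other groups were lower, at 8.48 CPM in CD (5.62 to 25.1), 8.02 in CDmetf (0.519 to 32.2) and 9.52 in HFDmetf (1.14 to 19.9). HFD vs. CD gave a logFC of 0.77 (SE 0.657), higher in 5 of 6 pairs, and HFDmetf vs. HFD a logFC of -1.12 (SE 0.672), lower in 4 of 6 pairs. Neither passed the test, with FDRs of 1.00 and 0.640. These pairs follow the labels. With the sexes exchanged, HFD M2 (7.57 CPM) would be paired with CD F2 (10.1) and HFDmetf F2 (1.14). HFD F2 (31.7 CPM) would be paired with CD M2 (6.91) and HFDmetf M2 (8.47). The lowest libraries held few reads of the gene, 2 counts each in CDmetf M1 and HFDmetf F2, which is under the floor of 3 counts.

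Fbp1 (ENSMUSG00000069805, chromosome 13, 62864753 to 62888282, minus strand) had nearly the same median in every group, 10.0 CPM in CD, 11.1 in CDmetf, 10.3 in HFD and 10.1 in HFDmetf, within a range of 3.91 to 26.3 CPM over all libraries. Slc37a4 (ENSMUSG00000032114, chromosome 9, 44396852 to 44402968) was likewise even, at 27.6, 24.9, 27.2 and 27.6 CPM in the same order, within a range of 14 to 49.1 CPM. For both genes, every logFC of a comparison of single groups lay between -0.29 and 0.16, with an SE of 0.227 to 0.291.

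**Figure D2:**
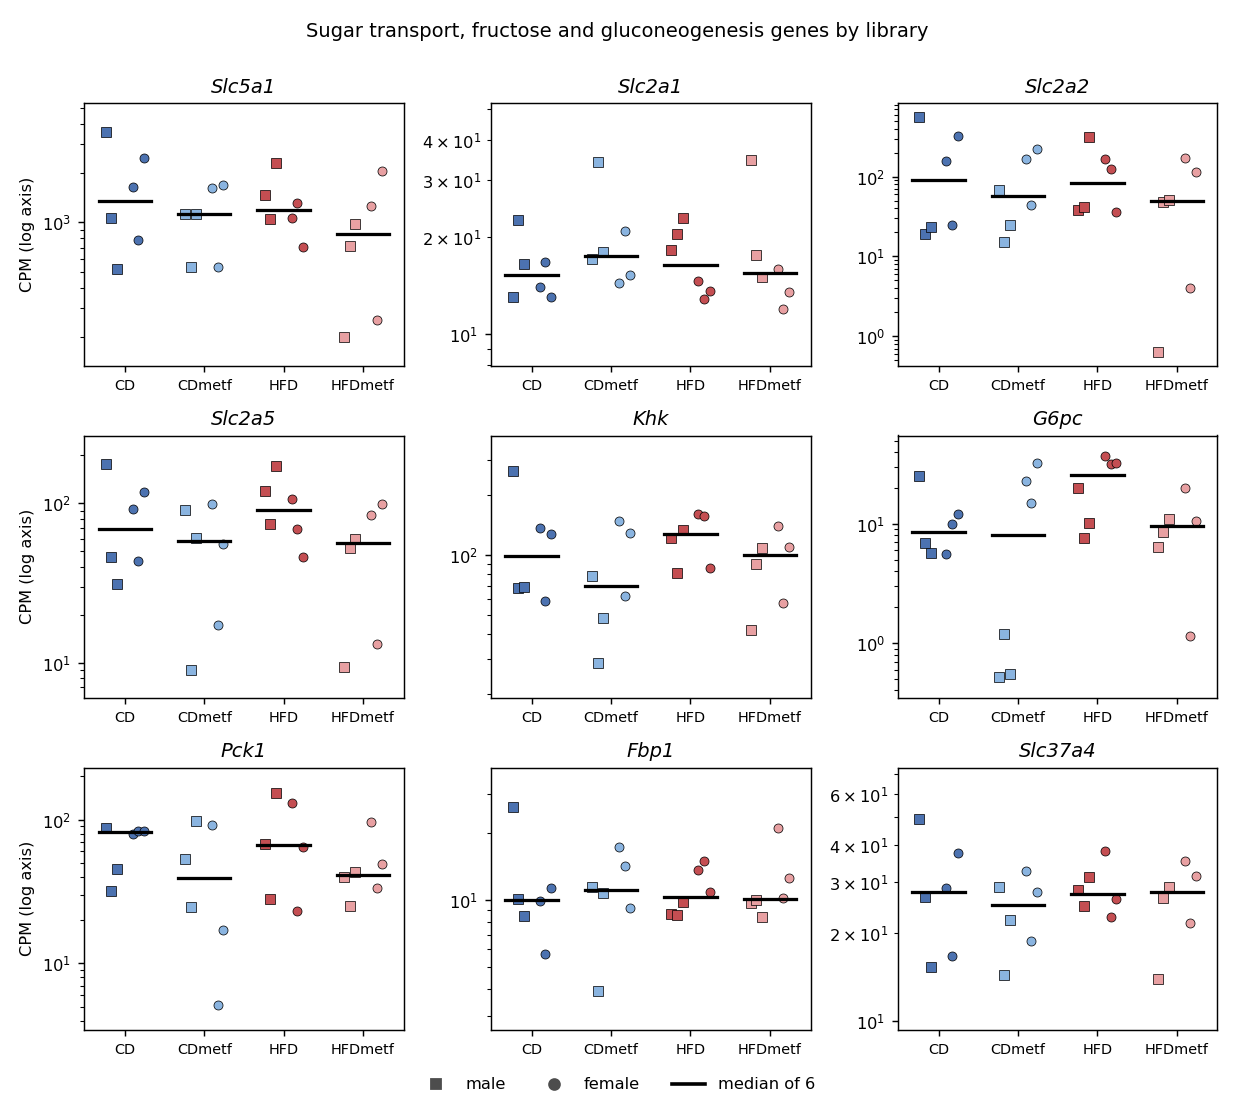
CPM (log axis) of the 9 genes in each library, by group, with squares for animals labelled male, circles for animals labelled female and a bar at the median of 6. The groups overlap in every panel, and Slc2a2, G6pc, Slc2a5 and Pck1 each have libraries far under their group's median.

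For the diet, the 9 genes showed no common direction. With HFD vs. CD, 4 were higher and 5 lower, with a median logFC of -0.03 against -0.005 over all genes tested, and 0 of 9 had an unadjusted p under 0.05 (4.63% of all genes did). With HFDmetf vs. CDmetf, 6 were higher and 3 lower, with a median of 0.10 against 0.03 over all genes, and again 0 of 9 had an unadjusted p under 0.05 (7.87% of all genes). Averaged over metformin, the logFC of the diet lay between -0.25 and 0.43, and 0 of 9 had an unadjusted p under 0.05 (5.96% of all genes). The interaction of diet and metformin lay between -0.68 and 0.23, with 0 of 9 under an unadjusted p of 0.05 (6.03% of all genes) and FDRs of 0.885 to 0.992. No gene of the 9 or of the whole table passed an FDR of 0.05 in these comparisons (0% of the 14076 genes).

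For metformin, most of the 9 estimates were below 0 on both diets. In CDmetf vs. CD 8 of 9 had a negative logFC with a median of -0.59, against -0.002 over all genes, of which 50.4% were lower. Without the single library CD M1, 5 of 9 were negative with a median of -0.09, and G6pc (0.17), Fbp1 (0.23) and Slc2a2 (0.01) were not. CD M1 had the highest sum of proximal markers of all libraries, 3276 CPM, beside 1583 CPM of ileal markers. Its sum of pancreatic acinar markers was also the highest, 40.9 CPM against a median of 4.18. In HFDmetf vs. HFD 7 of 9 were negative with a median of -0.60, against 0.03 over all genes, of which 46.1% were lower. In neither did a gene of the 9 reach an unadjusted p under 0.05, against 5.14% and 6.61% of all genes, or pass an FDR of 0.05 in the edgeR fit (0% of all genes). The genes were measured in the same libraries and moved together, as described below, so that their number does not count as separate observations.

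Averaged over both diets, 12 libraries with metformin against 12 without, 3 of the 9 genes had an unadjusted p under 0.05 and were lower, as 2.07% of all genes did. Slc2a5 had a logFC of -0.81 (SE 0.342, 95% confidence interval -1.52 to -0.10, edgeR FDR 0.793, unadjusted p = 0.0268). It was lower in 9 of 12 pairs. Khk had a logFC of -0.51 (SE 0.233) and Pck1 of -0.67 (SE 0.307), lower in 7 and 9 of 12 pairs. Slc5a1, with a logFC of -0.67 (SE 0.328, interval -1.35 to 0.01), and Slc2a2, with -1.07 (SE 0.608), had estimates of similar or larger size with an unadjusted p above 0.05. After adjustment over 14076 genes none of them passed, and the FDR of all 5 was 0.793. The estimates for G6pc were -0.78 (SE 0.475) and for Slc37a4 -0.20 (SE 0.162). Slc2a1 had 0.20 (SE 0.140), and Fbp1 -0.01 (SE 0.203). Without the replicate number as a block 0 of the 9 genes had an unadjusted p under 0.05. With the epithelial score as a covariate, or without HFD M2 and HFD F2, 1 did. With the sex of HFD M2 and HFD F2 exchanged, or with the proximal minus distal score as a covariate, 2 did. With DESeq2, with limma-voom or without CD M3, 4 did, and with no filter on low counts 5 did. Leaving out 1 library at a time gave 0 (without HFD M3) to 5 (without HFDmetf M2), with 1 without CD M1.

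**Figure D3:**
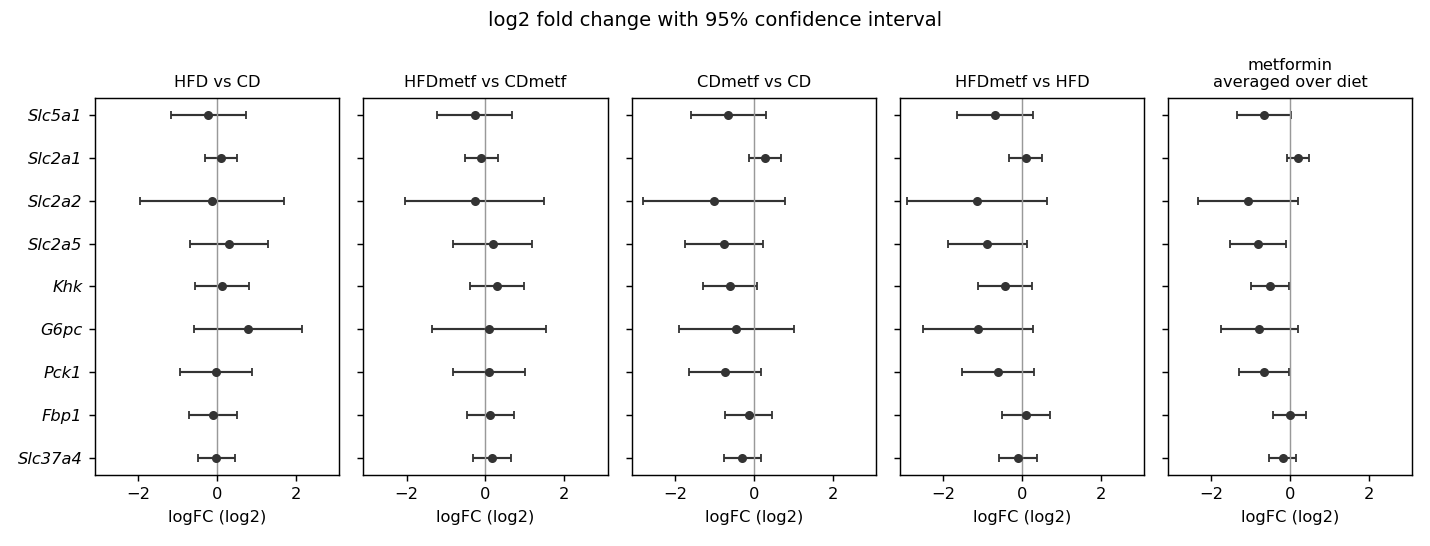
The logFC (log2 scale) of each gene with its 95% confidence interval in the 4 comparisons of single groups and for metformin averaged over diet. All intervals of the first 4 panels include 0, and in the last those of Slc2a5, Khk and Pck1 end under 0 before adjustment for the number of genes. The panels share libraries and are not independent.

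Values that moved with the metformin groups stand beside this. The sum of the proximal markers had a median of 111 CPM in CDmetf, against 1226 in CD, 1396 in HFD and 1028 in HFDmetf. Most of this sum was Lct, with a median of 30.5 CPM in CDmetf and 1143 in CD, and Gata4 was also lower, at 4.46 against 51.7 CPM. The other 4 had higher medians in CDmetf than in CD, with 37.6 against 12.3 CPM for Slc40a1 and 15.4 against 10.8 for Slc46a1. The sum of the 4 brush border markers (Alpi, Mep1a, Anpep and Slc15a1) had a median of 8039 CPM in HFDmetf against 11769 to 12785 in the other groups, and in HFDmetf F2 and HFDmetf M1 it was 2903 and 3590 CPM. A score of proximal minus distal markers weighs the genes of each list alike, so it does not stand for the lower sum of CDmetf. Over the 6 proximal genes the median logFC for CDmetf vs. CD was 0.10 (-1.09 to 0.81). With that score as a covariate, the logFC of metformin was -0.78 for Slc2a5, -0.49 for Khk and -0.62 for Pck1. With an epithelial score as a covariate it was -0.64, -0.41 and -0.79. Without HFDmetf M1, HFDmetf F2 and CD M3 it was -0.70, -0.42 and -0.77. In RNA of whole pieces of gut, fewer cells of a type and less RNA per cell cannot be told apart.

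Read by sex, G6pc set the CDmetf group apart. The 3 CDmetf males had 0.519, 1.2 and 0.555 CPM and the 3 CDmetf females 22.9, 14.8 and 32.2 CPM, with no overlap. The male values rested on 2, 4 and 17 counts, the last in a library of 26687199 counts in genes, and the female values on 70, 49 and 1355 counts. Over all genes, 4.80% had all 3 females above all 3 males in this group. In a model with 8 groups of diet, metformin and sex, added after these values had been seen, females exceeded males in CDmetf by a logFC of 5.20 (SE 0.745, edgeR FDR 0.0204), and G6pc was the 1 gene of 14402 that passed (0.00694%). The count depended on the fit: it was 93 with DESeq2, 8 with limma-voom, 147 with no filter on low counts, 10 with the sex of HFD M2 and HFD F2 exchanged, 13 without both and 71 without HFDmetf M1, HFDmetf F2 and CD M3. G6pc passed in each of these, with an FDR of at most 0.0290. The edgeR fit that called G6pc alone did not call Xist. Xist was at 861 to 1091 CPM in CDmetf females and 0.196 to 0.301 in CDmetf males. The Y-linked genes Ddx3y and Eif2s3y were not called either. That fit kept HFD M2 and HFD F2 under their labelled sexes, and its count misses known differences between the sexes.

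In the other groups the labelled sexes lay closer, although those of HFD did not overlap. CD males had 25.1, 6.91 and 5.67 CPM and CD females 5.62, 10.1 and 12.2 CPM, a difference of -0.33 in logFC (SE 0.568). HFD males had 20.0, 7.57 and 10.2 CPM and HFD females 36.8, 31.7 and 32.3, a difference of 1.50 (SE 0.561, FDR 0.887), but HFD M2 and HFD F2 are the 2 libraries whose sex-linked transcripts went against their labels. With the sex of those 2 exchanged the difference in HFD was 0.12 (SE 0.648). HFDmetf males had 6.36, 8.47 and 11.1 CPM and HFDmetf females 19.9, 1.14 and 10.6, a difference of 0.30 (SE 0.588). The effect of metformin on the control diet was 5.53 higher in females than in males on the log2 scale (SE 0.936, unadjusted p = 1.24e-05, FDR 0.179), with a logFC of -4.23 in males and 1.30 in females. The effect of the diet under metformin differed by -4.89 between females and males (SE 0.949, unadjusted p = 6.13e-05, FDR 0.161). Neither passed in the edgeR fit of all libraries, where 5.21% and 5.28% of all genes had an unadjusted p under 0.05 and 0% passed. Both passed with DESeq2 (FDR 4.76e-05 and 9.78e-04), with no filter on low counts (2.00e-05 and 3.91e-04) and without CD M3, HFDmetf M1 and HFDmetf F2 (0.00684 and 0.0488). The first also passed without CD M3 (FDR 0.0452) or HFDmetf F2 (0.0382) alone, and the second without HFDmetf M1 alone (0.0490). Neither passed with the sex of HFD M2 and HFD F2 exchanged (FDR 0.660 and 0.312) or without both (0.248 and 0.175). The same held with the proximal minus distal score (0.449 and 0.201) and the epithelial score (0.119 and 0.297). It also held with a term for the libraries deepest in gene counts (0.440 and 0.340), without the replicate block (0.156 and 0.438) and with limma-voom (0.145 and 0.172).

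The low CDmetf males were also low in proximal markers, which summed to 91.4, 55.0 and 73.8 CPM in them. The CDmetf females had 2701, 131 and 2469 CPM. In CD M2, with 82.4 CPM of these markers, G6pc was at 6.91 CPM, and in HFDmetf M1, with 74.0, it was at 6.36 CPM. In HFDmetf F2, with 78.5 CPM of the markers, it was at 1.14 CPM, on 2 counts. The proximal minus distal score weighs the listed genes alike and is not this sum. With that score as a covariate, the difference between the sexes in CDmetf was 5.14 in logFC. Its FDR was 0.0753, no longer past the threshold. Leaving out CDmetf M1, CDmetf M3 or CDmetf F3 gave 5.00, 4.78 and 4.76, with FDRs of 0.309, 0.359 and 0.17. None of the other 8 genes passed an FDR of 0.05 in the 16 comparisons of this model. The lowest FDR was that of Khk, which differed by 1.18 between CDmetf females and males (SE 0.462, unadjusted p = 0.0192, FDR 0.513). In that comparison 8.08% of all genes had an unadjusted p under 0.05.

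**Figure D4:**
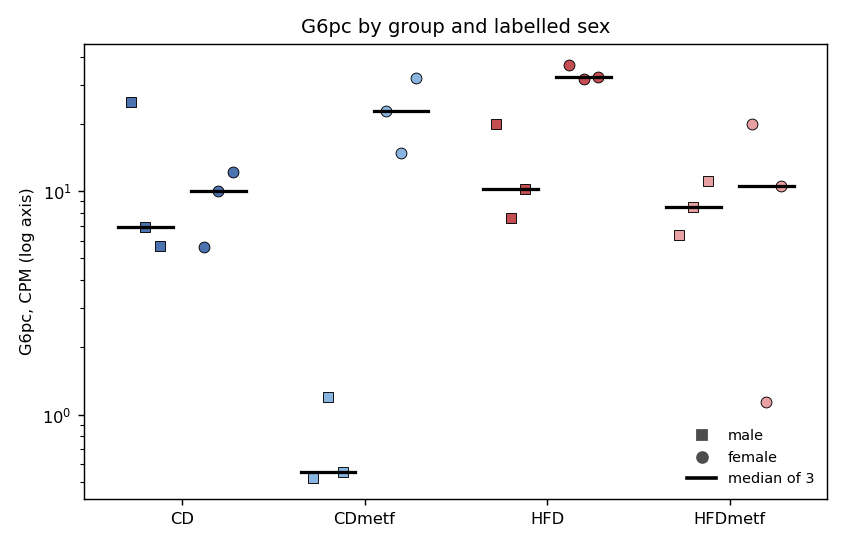
G6pc (CPM, log axis) by group and labelled sex, 3 animals each, with a bar at the median. The CDmetf males lie between 0.519 and 1.2 CPM and the CDmetf females between 14.8 and 32.2, while the sexes overlap in CD and HFDmetf.

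Across the 24 libraries, the absorptive genes varied together. In log2 CPM, Slc5a1 correlated with Slc2a2 (Pearson r = 0.905, Spearman rho = 0.826) and with Slc2a5 (r = 0.903, rho = 0.861). Slc2a2 correlated with Slc2a5 (r = 0.831) and Khk (r = 0.825, rho = 0.874), and Slc37a4 with Khk (r = 0.857, rho = 0.808) and Slc2a5 (r = 0.846, rho = 0.867). For these pairs the permutation p adjusted over the 36 pairs was 4.50e-05 to 8.00e-05 for r. The relation held after removing the means of group, sex and replicate number, with r of 0.893 for Slc5a1 and Slc2a2 and 0.915 for Slc5a1 and Slc2a5. Without the 2 libraries farthest from the median of Slc5a1 these were 0.823 and 0.845. In the 9 libraries deepest in gene counts they were 0.791 and 0.801, and in the 15 others 0.926 and 0.924. By gene counts CD M3 is among the deep libraries. Its size after TMM scaling was 4232409, under the 9742842 of CD M1, which is among the others.

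The enzymes of gluconeogenesis were less closely related. G6pc and Pck1 had an r of 0.038 (rho = 0.123, permutation p adjusted over the 36 pairs 0.860), and Pck1 and Fbp1 one of 0.186 (rho = 0.286, adjusted p = 0.39). G6pc and Fbp1 had an r of 0.419 (rho = 0.416, adjusted p = 0.0569). G6pc went with Khk more closely (r = 0.680, rho = 0.700, adjusted p = 9.14e-04), with an r of 0.624 without the 2 libraries farthest from the median of Khk, 0.752 in the 9 deep libraries and 0.657 in the 15 others. Slc2a1 had an r under 0 in all 8 of its pairs, of which G6pc (-0.320) and Pck1 (-0.250) had adjusted p of 0.138 and 0.249. The strongest was with Khk (r = -0.654, rho = -0.531, adjusted p = 0.00141 for r and 0.0180 for rho), which was -0.388 without the 2 libraries farthest from the median of Slc2a1, so that it rests in part on those 2. Without them r went from -0.527 to -0.029 with Slc2a5, from -0.538 to -0.178 with Slc2a2 and from -0.591 to -0.284 with Slc37a4.

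The levels also followed the summed proximal markers, none of which is among the 9 genes. As most of the sum was Lct (a median of 905 CPM of 1005), this is mainly a relation with that gene. Against their summed level Khk had an r of 0.905 (rho = 0.926), Slc2a2 0.798 (rho = 0.878), Slc2a5 0.769 (rho = 0.791), G6pc 0.736 (rho = 0.673) and Slc5a1 0.718 (rho = 0.728). The permutation p adjusted over 54 pairs of a gene and a marker list was 1.35e-04 for Khk and at most 4.86e-04 for the other 4 by r, and at most 0.00199 by rho. Without the 2 libraries farthest from the median of the markers, the r of Khk was 0.887. It was 0.982 in the 9 deepest libraries and 0.886 in the 15 others. Slc5a1 held less well within the deep libraries (r = 0.450) than in the others (r = 0.773). The same genes also followed the summed epithelial markers, with r of 0.797 for Slc5a1, 0.689 for Slc2a5, 0.685 for Slc2a2, 0.629 for Khk and 0.495 for G6pc. Against the summed brush border markers r was 0.774, 0.698, 0.670, 0.467 and 0.288 in that order. For Slc5a1 both values exceed that with the proximal sum. Against the summed ileal markers r was -0.102, -0.179, -0.224, -0.420 and -0.289. Pck1 followed the proximal markers less (r = 0.419, rho = 0.477, adjusted p = 0.0685), with an r of -0.045 once the means of group, sex and number were removed. The summed smooth muscle markers (Myh11, Actg2, Des, Cnn1 and Synpo2) ran the other way, with an r of -0.833 for Khk (rho = -0.766) and 0.593 for Slc2a1 (rho = 0.488). The part of tissue makeup in the levels beyond these values was not tested.

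**Figure D5:**
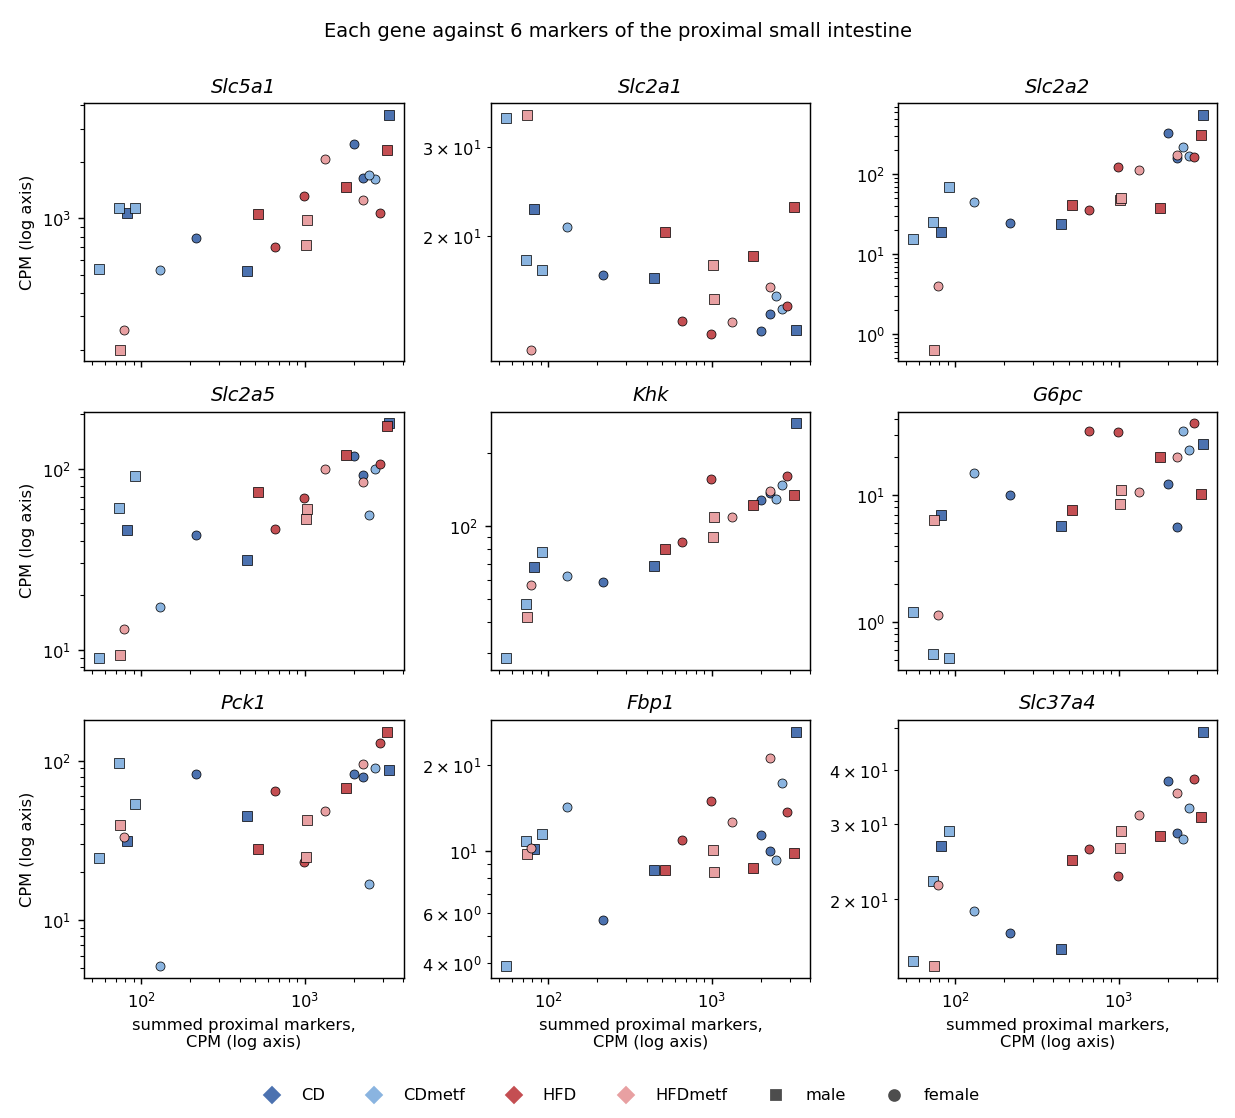
CPM of each gene against the summed CPM of 6 proximal markers (both log axes), 1 point per library, coloured by group, with squares for male and circles for female labels. Khk and Slc2a2 rise along the axis (r = 0.905 and 0.798), Slc2a1 falls (r = -0.530), and Pck1 scatters (r = 0.419).

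The genes with the most similar pattern, by Pearson r of log2 CPM over the 24 libraries among all genes tested differed from gene to gene. For Slc5a1 they were Sis, the brush border sucrase-isomaltase (r = 0.963), Clic5 (0.959) and Snx25 (0.945). For Slc2a2 they were H2-Q1 (0.946), the amino acid carrier gene Slc16a10 (0.911) and the brush border peptidase gene Mme (0.908). Slc2a5 was most like Abcc2 (0.936) and Slc5a12 (0.922), and Khk most like Soat2 (0.959), Slc5a11 (0.958) and Dgat1 (0.953). Slc37a4 was most like Rab3gap2 (0.895), Ddhd2 (0.879) and Osbpl6 (0.876). The closest genes were less close for G6pc, namely Mical1 (0.871), Ddc (0.832) and Pfkfb4 (0.801), and for Slc2a1, namely Il1rn (0.861), Pacs2 (0.844) and Trp53inp2 (0.787). They were least close for Pck1, with Osbpl3 (0.763), Pcnx (0.744) and AC113961.1 (0.737), and for Fbp1, with Trub2 (0.769), Cars2 (0.742) and Zfp764 (0.740). These are descriptions over libraries that share tissue makeup and depth.

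The wider pathways were read from fixed lists for metformin averaged over diet. In this comparison 47.6% of all genes were lower, 5.04% had an unadjusted p under 0.05 and 0% passed the FDR. Of 15 other sugar carrier genes tested (18 listed), 0 passed, 7 were higher and 8 lower, with a median logFC of -0.05 against 0.01 over all genes. An unadjusted p under 0.05 was seen for 3 of them, all lower, namely Slc5a11, a sodium-coupled inositol carrier (-0.83, SE 0.314), the Slc5a1 relative Slc5a4a (-1.07, SE 0.441) and Slc2a9, a urate carrier (-0.38, SE 0.153). Of 5 further genes of fructose and polyol metabolism, 0 had an unadjusted p under 0.05 and 4 were lower. Of 6 further gluconeogenic genes, 0 had an unadjusted p under 0.05 and 4 were lower. All 6 galactose genes were lower, with a median of -0.17, and Galk1, the galactokinase, had an unadjusted p under 0.05 (-0.45, SE 0.15).

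Of the regulators of these genes, all 11 tested were lower with metformin averaged over diet, against 47.6% of all genes. Their median logFC was -0.12, and 0 had an unadjusted p under 0.05. Mlxipl, which encodes the sugar sensor ChREBP, had median levels of 127 CPM in CD, 92.9 in CDmetf, 128 in HFD and 163 in HFDmetf. CDmetf vs. CD gave it a logFC of -0.70 (SE 0.325) and an FDR of 0.940. Of 6 hypoxia and growth factor targets often expressed with Slc2a1, 3 were higher and 3 lower with metformin averaged over diet, with a median of 0.02. One of them, Egln3, an oxygen-sensing hydroxylase, had a logFC of 0.97 (SE 0.298, FDR 1.00) for HFD vs. CD and -0.64 (SE 0.296, FDR 0.640) for HFDmetf vs. HFD. Its median level was 63.7 CPM in CD and 118 in HFD, and neither difference passed the test.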

How the data were processed

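RNA of ileal tissue was made into strand-directional libraries after depletion of ribosomal RNA and sequenced in pairs of reads. The authors deposited raw read counts per gene, without normalization. The submitters' processing notes name Trimmomatic 0.39, STAR 2.5.3a and GRCm38. Which annotation release and strand setting served for counting is not given in the sources used here. Rows that name no gene held 35.5 to 75.7% of a library's reads (median 45.0%) and were left out of library sizes. Libraries held 1829690 to 40606442 gene counts, and low values are limited by counting error first.

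Genes were filtered by filterByExpr, scaled by TMM and tested in edgeR 4.0.16 (R 4.3.3) with its quasi-likelihood test. All 24 libraries were fitted with terms for group, sex and replicate number (17 residual degrees of freedom), and p-values were adjusted by Benjamini-Hochberg over 14076 genes, with an FDR threshold of 0.05. The model of 8 groups by sex tested 14402 genes. Log2 CPM used a prior count of 1. A marker score was the mean z of log2 CPM over a marker list. Alternatives used DESeq2 1.42.0 and limma 3.58.1 (limma-voom). Correlations were tested with 100000 permutations in Python 3.11.15 (scipy 1.17.1, numpy 2.4.6, pandas 2.3.3), where the smallest p is 1e-05, over families of 36 and 54 relations. The fits were tested on simulated counts.

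The replicate number was kept as a term after the study's use of a sequencing block. The sample titles number biological replicates and do not state that this number is that block, so pairing by it was an assumption. As a check of this pairing, deviations from the group means were correlated between libraries of different groups. The mean r was 0.168 over 36 pairs that shared sex and number, 23 of them over 0.1, and -0.028 over 72 pairs that shared sex but not number.

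The genes, the lists and the rule for named genes (all 9 genes, the 3 most alike genes of each, and list genes with an unadjusted p under 0.05) were chosen with earlier results of these data known. Genes that the rule names but the text does not are not reported here. Gene coordinates came from GENCODE vM21 on GRCm38.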

Additional observations from a re-analysis of the deposited data

Results flagged for a closer look

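In 6 of 36 sets of 6 libraries (9 genes in 4 groups), 1 library stood so far from the others that its gap to the nearest, as a share of the group's range, exceeded Dixon's critical value at 95%. That value holds for normally distributed values in separate sets. These were CPM on the plain scale in sets that share the same libraries, so no share expected by chance is given. In every flagged set the library stood at the high end. Slc2a1 was at 34.3 CPM in CDmetf M2, with the next library at 20.9, and at 34.7 CPM in HFDmetf M1, with the next at 17.6. CD M1 was the highest CD library for G6pc, with 25.1 CPM against 12.2 in the next, and for Fbp1, with 26.3 against 11.4 CPM. HFDmetf F1 was the highest of its group for Pck1, with 95.6 against 48.9 CPM, and for Fbp1, with 21.1 against 12.6 CPM.

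The response of G6pc differed between the sexes by a test of the difference itself before adjustment, but not after it in the edgeR fit of all libraries. CDmetf vs. CD differed by 5.53 in logFC between females and males (unadjusted p = 1.24e-05, edgeR FDR 0.179). HFDmetf vs. CDmetf differed by -4.89 (unadjusted p = 6.13e-05, edgeR FDR 0.161). Both involve the 3 CDmetf males, whose G6pc counts were 2, 4 and 17.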

How the results depend on the processing

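Of 647 values under other settings, 610 kept their direction and their side of the threshold, and 29 estimates for the 9 genes changed sign. No gene of the 9 passed an FDR of 0.05 in the 7 comparisons under any setting. The cause of the changes was not tested. The exchange of the sex of HFD M2 and HFD F2, the fit without HFDmetf M1, HFDmetf F2 and CD M3, and all settings of the model by sex were chosen after seeing the data. The count of all genes passing the FDR, 0 throughout in the edgeR fit, was 13 for HFD vs. CD, 3 for HFDmetf vs. CDmetf, 4 for CDmetf vs. CD, 4 for the interaction and 48 for diet averaged over metformin with DESeq2. For diet averaged over metformin it was 2 with limma-voom, 2 with no filter on low counts, 1 with the proximal minus distal score and 6 without HFDmetf M1, HFDmetf F2 and CD M3.

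For HFD vs. CD, limma-voom gave 0.11 for Slc5a1, 0.042 for Slc2a2 and 0.067 for Pck1. Without HFD M2 and HFD F2, Slc2a5 was -0.016, Khk -0.14 and Pck1 0.26, and with only the groups compared Pck1 was 0.037. For HFDmetf vs. CDmetf, the epithelial score gave 0.20 for Slc5a1, 0.29 for Slc2a2 and -0.10 for Pck1, and leaving out the 3 libraries gave 0.14 for Slc5a1 and 0.20 for Slc2a2. There Slc2a5 was -0.31 with limma-voom and -0.015 with the proximal minus distal score, which gave -0.035 for Pck1, and G6pc was -0.057 with the sex of HFD M2 and HFD F2 exchanged. For HFDmetf vs. HFD, Slc2a1 was -0.029 without HFD M2 and HFD F2 and -0.095 without the 3 libraries, where Slc37a4 was 0.072, and with the epithelial score Slc37a4 was 7.95e-06. Metformin averaged over diet gave Fbp1 0.060 with limma-voom, 0.0034 with at least 10 counts in every library, 0.068 without HFD M2 and HFD F2, 0.0012 with the proximal minus distal score and 0.032 without the 3 libraries. The filter of 10 counts leaves no value for G6pc and Slc2a2. The difference of G6pc between the sexes in CDmetf lost its call with the proximal minus distal score (5.14).

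Without the replicate number as a block, Khk (-0.015) and Pck1 (0.20) changed sign for HFD vs. CD, and Slc2a5 (-0.040) and Pck1 (-0.028) for HFDmetf vs. CDmetf. It changed no call at the FDR threshold among the 7 comparisons.

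Leaving out 1 library at a time, 1096 of 1152 values kept direction and call. For HFD vs. CD the range was -0.46 to 0.14 for Slc5a1, -0.010 to 0.16 for Slc2a1, -0.88 to 0.89 for Slc2a2, -0.047 to 0.49 for Khk, -0.31 to 0.33 for Pck1, -0.26 to 0.23 for Fbp1, -0.16 to 0.17 for Slc37a4. For HFDmetf vs. CDmetf the range was -0.84 to 0.077 for Slc2a2, -0.079 to 0.49 for Slc2a5, -0.29 to 0.86 for G6pc, -0.15 to 0.49 for Pck1, -0.015 to 0.25 for Fbp1. For HFDmetf vs. HFD the range was -0.15 to 0.16 for Slc2a1, -0.048 to 0.22 for Fbp1, -0.23 to 0.080 for Slc37a4. For CDmetf vs. CD the range was -1.31 to 0.0084 for Slc2a2, -1.15 to 0.17 for G6pc, -0.30 to 0.23 for Fbp1. For metformin averaged over diet the range was -0.12 to 0.17 for Fbp1. The count of genes passing the FDR was 0 to 1 for HFD vs. CD, with 1 without CD F1, and 0 to 6 for diet averaged over metformin, with 1 without CD F1 and 6 without CDmetf F1. The difference of G6pc between the sexes in CDmetf was 4.76 to 5.52 and lost its call without CDmetf M1, CDmetf M3 or CDmetf F3.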
